A study of Mus musculus with 4 samples.

Results

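TCRγδ and TCRβ CD8α+ intraepithelial lymphocytes (IELs) of the mouse colon were compared in the 2 libraries labelled Tcf7WT. All cells of both matrices were used except epithelial cells, which were recognised by 10 or more summed UMIs of the epithelial genes Krt8, Krt19, Pigr and Epcam. A UMI, or unique molecular identifier, stands for 1 captured transcript molecule. This left 1870 TCRγδ cells and 7592 TCRβ cells, 9462 of the 16787 cells in the 4 libraries of the series. Each library came from colon IELs that were sorted as live, CD3-positive and CD8α-positive, and either TCRβ-positive or, in the label's word, TCRgamma-positive, taken here to mean TCRγδ because the title has Tcrgd. Libraries were made with a droplet 3′ kit. The strain label of all 4 libraries is E8IcreTcf7fl/fl, so the controls carry the floxed Tcf7 gene and the Cre in name too, and the genotype label alone (Tcf7WT or Tcf7KO) tells them apart. E8I is an enhancer of the CD8α gene that drives Cre in CD8α-expressing T cells. The labels give neither the number of mice behind a library nor whether animals were pooled.

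IELs live between the epithelial cells of the gut. Those with an αβ receptor arise in part from conventional CD8 T cells that carry a CD8αβ coreceptor, while γδ IELs and the "natural" αβ IELs mostly carry a CD8αα homodimer and NK cell-type receptors. IELs are known for stored cytotoxic granules, with granzymes, and for the chemokine CCL5. Tcf7 encodes TCF-1, a transcription factor that holds T cells in naive, memory-like and progenitor states. How the γδ and αβ cells of this compartment differ when Tcf7 is present is what the comparison addresses.

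Each group was 1 library, so no test was made, and nothing here measures the spread between mice. A level is given in CPM, the UMIs of a gene per 1000000 UMIs summed over all cells of a library. A difference is the log2 ratio of the TCRγδ CPM to the TCRβ CPM, with an exact 95% interval. Intervals cover counting error alone. The TCRγδ library held 6093349 UMIs, with a median of 3190 per cell, and the TCRβ library 20159687, with a median of 2430. At this depth a count of 0 allows up to 0.492 CPM in the TCRγδ library and 0.149 CPM in the TCRβ library. The libraries shared 7 cell barcodes, 0.371% of the smaller library. The epithelial rule took out 18 TCRγδ cells and 11 TCRβ cells, and the kept cell with most such UMIs had 9 and 7, against 14 and 12 in the removed cell with fewest. A CD3 UMI (Cd3d, Cd3e or Cd3g) was found in 99.7% and 99.9% of the kept cells and in 2 of the 18 and 1 of the 11 removed cells.

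The receptor genes followed the labels. Trdc, the constant gene of the δ chain, stood at 1978 CPM in the TCRγδ library and 15.5 CPM in the TCRβ library. When every cell was thinned to 1624 UMIs, a Trdc UMI was found in 91.4% of TCRγδ cells (89.9 to 92.8) and 1.68% of TCRβ cells (1.39 to 2.02). Without thinning the shares were 95.9% and 2.28%. The sort set these values, so they check the labels and are no finding. Transcripts of the αβ constant genes were nevertheless present in most TCRγδ cells. A UMI of Trac, Trbc1 or Trbc2 was found in 92.7% of them (91.3 to 93.9) and in 98.9% of TCRβ cells (98.6 to 99.1), against 95.6% and 99.5% without thinning. None of the 21 removed epithelial cells deep enough to be thinned had one, which allows a share of up to 14.3%, taken as 3 cells of 21. Those 21 cells, with a median of 7352 UMIs before thinning against 3516 in TCRγδ and 2530 in TCRβ cells, are the background for the shares given here. They are too few to separate a share under 14.3% from free RNA, and the limit is higher for a gene found in any of them. The levels differed less than those of Trdc: Trac, the α constant gene, stood at 490 and 977 CPM, Trbc2 at 1154 and 1946 CPM, and Trbc1 at 678 and 794 CPM. Among TCRγδ cells with a Trdc UMI, 76.7% also had a Trbc2 UMI and 49.0% a Trac UMI. A 3′ count does not tell a rearranged chain from an unrearranged transcript of the same constant gene. Of the γ constant genes, Tcrg-C1 stood at 366 and 79.5 CPM (log2 ratio 2.20) and Tcrg-C3 at 175 and 26.5 CPM (2.72), while Tcrg-C2 (0.19) and Tcrg-C4 (0.09) were close to level. These 4 genes resemble each other, and how the counting shared reads among them is not known.

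Transcripts of granzymes, chemokines and MHC class II were higher in TCRγδ cells, and those of 7 of 8 Ly49 receptors, 13 of 18 naive and memory genes and, among costimulatory receptors, Cd28 and Cd2 were lower. Of 11123 genes listed in both files with at least 50 UMIs over both libraries, 819 (7.36%) were at least 1.5-fold higher in TCRγδ cells and 975 (8.77%) at least 1.5-fold lower. The median log2 ratio of all 11123 genes was -0.095. At 2-fold the counts were 359 and 353, and at 4-fold 88 and 98. The interval lay wholly above 0 for 771 of the 819 higher genes and wholly below 0 for 838 of the 975 lower ones. The 15 highest genes with at least 100 UMIs and 50 CPM, receptor segments left aside, began with Scin, Gzma, Cd74, H2-Eb1, Prdm1 and Gzmb. The 15 lowest began with Cd28, S100a4, Cd8b1, Cldn10, Cd2 and Klra6.

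**Figure D1:**
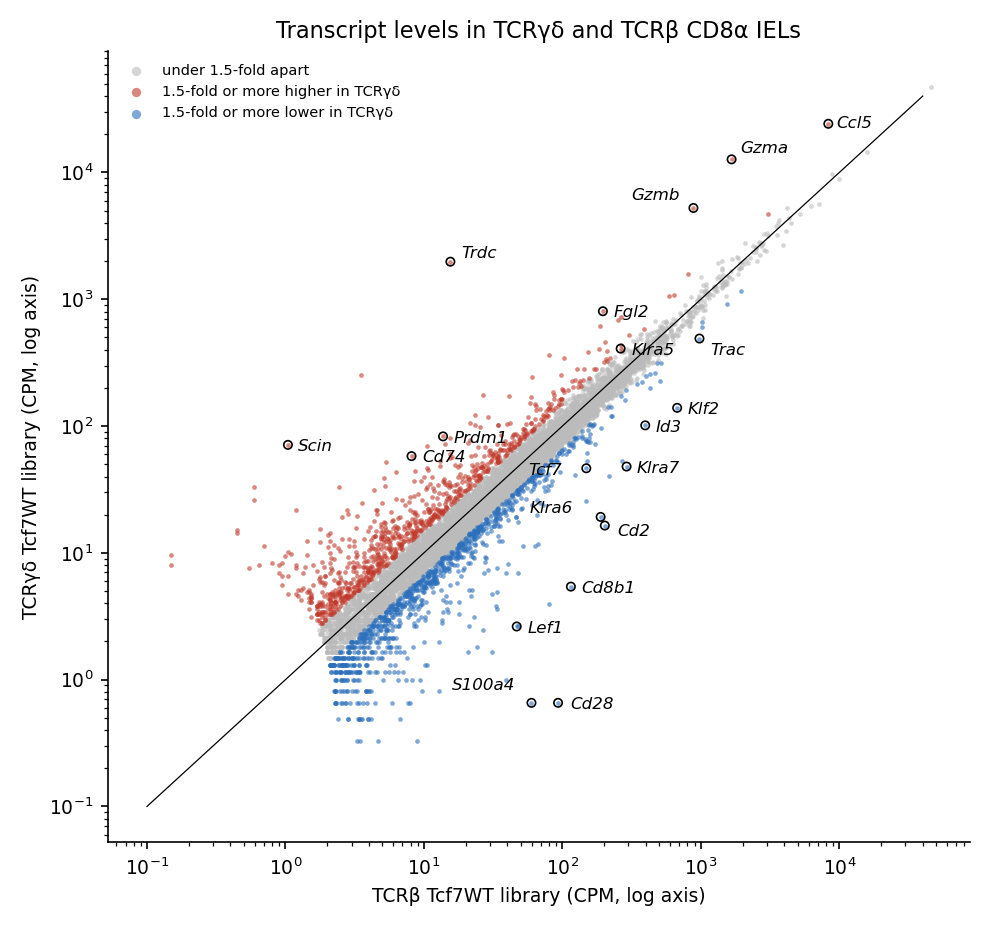
Level of each measured gene in the TCRβ Tcf7WT library (x axis, CPM, log scale) and in the TCRγδ Tcf7WT library (y axis, CPM, log scale), 1 point per gene, with the line of equal level. Red points, 819 genes, are at least 1.5-fold higher in TCRγδ cells and blue points, 975 genes, at least 1.5-fold lower; Trdc, Gzma, Gzmb, Ccl5 and Scin stand far above the line and Cd28, S100a4 and Cd8b1 far below it.

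By gene list the split was uneven. Granzymes and perforin had 5 of 6 measured members higher and 1 lower (median log2 ratio 2.36), MHC class II genes 6 of 10 higher and 2 lower (1.80), and chemokines 4 of 5 higher and none lower (1.14). Naive and memory genes had 1 of 18 higher and 13 lower (-1.48), and Ly49 receptors 1 of 8 higher and 7 lower (-2.05). Several lists were close to level. None of the 4 CD3 chains or of the 10 GIMAP family genes, small GTPases of lymphocytes, was 1.5-fold apart, and of 54 oxidative phosphorylation genes 3 were higher and none lower with a median near 0. Of 22 MHC class I genes 1 was higher and none lower (0.06). Of 38 T cell receptor signalling genes 1 was higher and 6 were lower (15.8%), down to Sh2d1a, the adaptor SAP, at -2.31, around a median of -0.11.

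**Figure D2:**
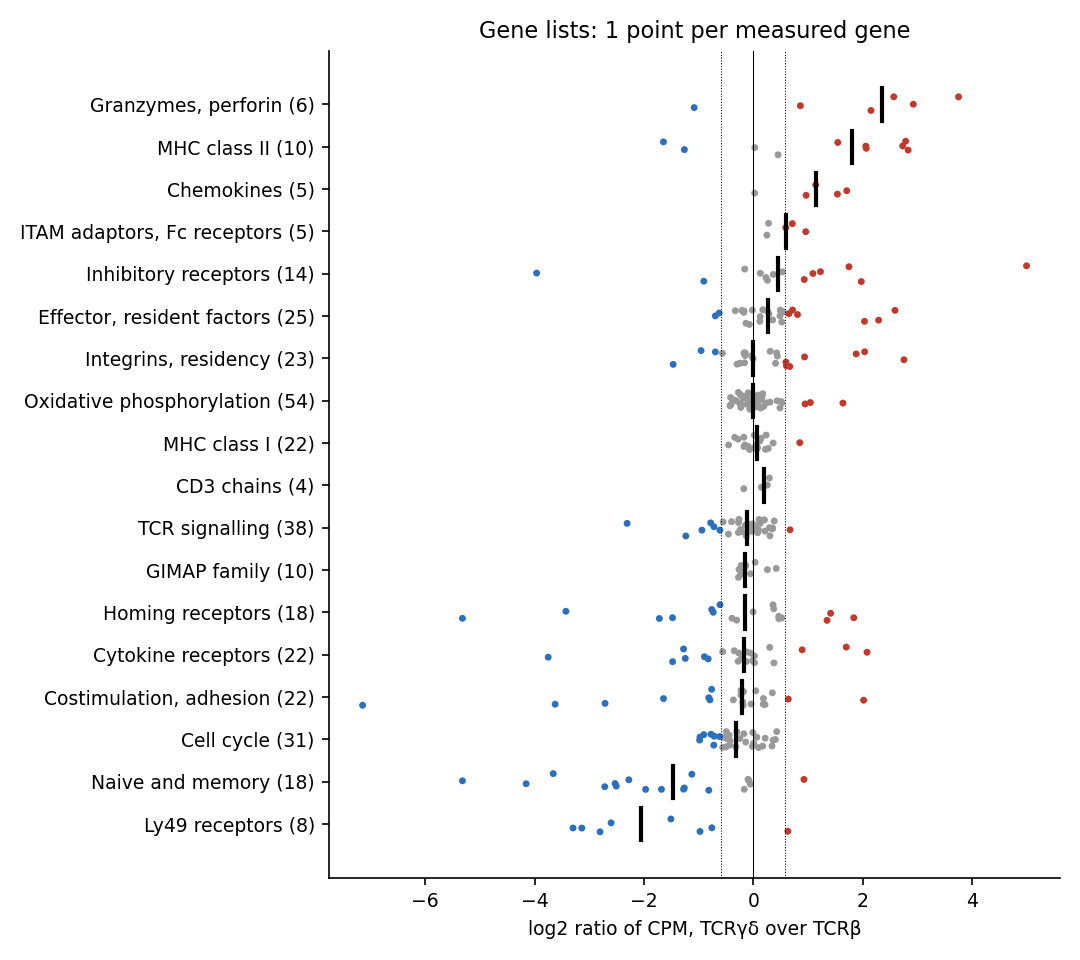
Log2 ratio of CPM, TCRγδ over TCRβ (x axis), of each measured gene in 18 lists (rows, with the number of measured genes in brackets). Each point is a gene, red or blue where at least 1.5-fold higher or lower (dotted lines), and the black bar is the list's median; granzymes and MHC class II sit to the right, naive and memory genes and Ly49 receptors to the left, and CD3, GIMAP and oxidative phosphorylation genes around 0.

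Granzymes are serine proteases that cytotoxic cells release into their targets. Gzma, granzyme A, stood at 12683 CPM in TCRγδ cells and 1666 CPM in TCRβ cells, a log2 ratio of 2.93 (2.91 to 2.95). Gzmb, granzyme B, stood at 5245 and 883 CPM (2.57, 2.54 to 2.60). Both libraries made large amounts of these transcripts, and the TCRγδ library 7.61-fold and 5.94-fold more. The less abundant Gzmk, at 32.8 and 2.43 CPM (3.76), and Gzmc, at 46.8 and 10.5 CPM (2.15), were higher as well. Prf1, which encodes the pore-forming perforin, differed less, with 134 and 244 UMIs (0.86), and Gzmm was the lower member, from 8 and 56 UMIs (-1.08).

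The libraries differed in how many cells held granzyme transcripts. After thinning, 58.8% of TCRγδ cells (56.4 to 61.3) and 9.32% of TCRβ cells (8.64 to 10.0) had at least 1 UMI of Gzma, or 61.8% and 9.94% without thinning. Few TCRγδ cells lay between none and many. In the TCRγδ library 41.2% of thinned cells had none, 4.76% had 1 to 4 UMIs and 54.1% had 5 or more. In the TCRβ library the same classes held 90.7%, 2.40% and 6.92%, so the middle class was a larger part of the cells with Gzma there. A positive TCRγδ cell held a median of 34 Gzma UMIs and a positive TCRβ cell 25. Gzmb was found in 79.0% and 21.2% of thinned cells (81.7% and 24.1% unthinned), with a median of 9 and 3 UMIs in the positive ones, so both the share and the amount differed. Among removed epithelial cells, 0 of 21 thinned cells had a Gzma UMI and 9.52% a Gzmb UMI. Of all 29, unthinned, 13.8% and 20.7% did.

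**Figure D3:**
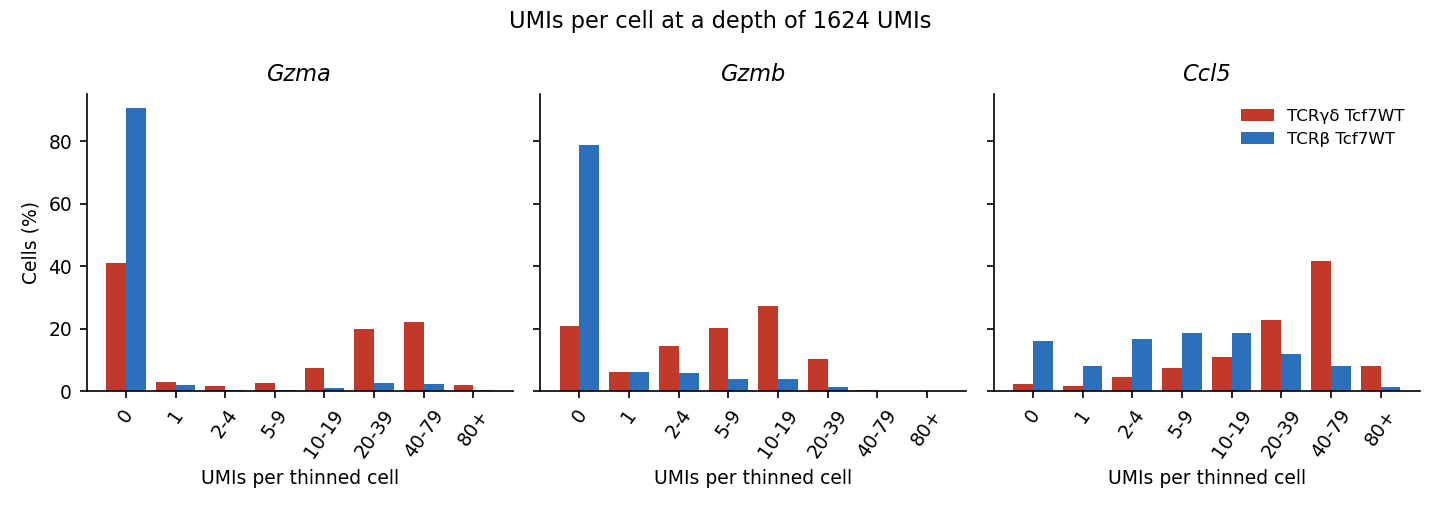
Share of cells (y axis, %) by the number of Gzma, Gzmb or Ccl5 UMIs per cell (x axis, classes of unequal width), each cell thinned to 1624 UMIs, for 1577 TCRγδ cells (red) and 6834 TCRβ cells (blue). Most TCRγδ cells have either no Gzma UMI or 10 to 79 of them, with 41.2% of TCRγδ and 90.7% of TCRβ cells at 0. Among TCRβ cells the class of 1 Gzma UMI (1.99%) is larger than that of 10 to 19 (1.08%). Ccl5 is present in nearly all TCRγδ cells.

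Chemokines draw other leukocytes to a site. Ccl5 was among the most abundant transcripts of both libraries, at 24192 CPM in TCRγδ cells and 8322 CPM in TCRβ cells (1.54, 1.53 to 1.55). A Ccl5 UMI was found in 97.6% and 83.9% of thinned cells, or 98.5% and 86.2% unthinned, and positive cells held a median of 40 and 9 UMIs. Of the removed epithelial cells 0 of 21 had one after thinning and 24.1% of 29 unthinned. Ccl4 stood at 611 and 187 CPM (1.71) and Ccl3 at 153 and 78.1 CPM (0.97). Xcl1, a chemokine for cross-presenting dendritic cells, was level, at 1684 and 1654 CPM (0.03). Ifng, the gene of interferon-γ, stood at 133 and 64.2 CPM (1.05, 0.92 to 1.18), and Fasl, a death ligand, at 160 and 93.9 CPM (0.77). The lymphotoxin gene Ltb ran the other way, at 228 and 508 CPM (-1.15).

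The promoters of 4 genes are printed because they stand for both ends of the comparison: Gzma and Scin, the leading higher genes, and Klra5 and Klra6, neighbouring Ly49 receptor genes that differed in opposite directions. Each is the 250 bases before the RefSeq transcription start, read 5′ to 3′ on the gene's strand (GRCm38.p6). They are Gzma chr13:113100982-113101231, Scin chr12:40134229-40134478, Klra5 chr6:129913225-129913474 and Klra6 chr6:130026955-130027204, all on the minus strand. Each start matched the start of a GENCODE M21 transcript. Capitals mark matches, on either strand, to RUNX (TGTGGTT), TCF/LEF (CTTTGAT), T-box (GGTGTGA) or ETS (GGAAGT) motif letters.
Gzma: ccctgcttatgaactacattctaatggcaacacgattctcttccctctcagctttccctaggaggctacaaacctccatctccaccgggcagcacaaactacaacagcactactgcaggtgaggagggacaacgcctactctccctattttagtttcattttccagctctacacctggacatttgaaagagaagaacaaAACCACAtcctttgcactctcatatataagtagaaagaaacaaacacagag
Scin: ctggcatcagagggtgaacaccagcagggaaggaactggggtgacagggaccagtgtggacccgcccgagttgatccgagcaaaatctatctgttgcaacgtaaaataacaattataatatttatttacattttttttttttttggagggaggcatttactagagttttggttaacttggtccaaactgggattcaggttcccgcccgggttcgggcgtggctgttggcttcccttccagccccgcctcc
Klra5: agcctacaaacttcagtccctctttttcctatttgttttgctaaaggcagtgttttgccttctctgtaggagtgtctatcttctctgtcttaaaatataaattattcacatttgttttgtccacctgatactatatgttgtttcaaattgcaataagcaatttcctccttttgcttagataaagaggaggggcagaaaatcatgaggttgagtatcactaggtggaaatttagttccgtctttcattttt
Klra6: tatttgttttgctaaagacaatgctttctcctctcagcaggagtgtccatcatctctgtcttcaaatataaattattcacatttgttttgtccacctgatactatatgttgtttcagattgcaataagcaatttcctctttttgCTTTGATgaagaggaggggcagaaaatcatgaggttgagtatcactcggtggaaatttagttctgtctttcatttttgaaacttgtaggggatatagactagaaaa
Gzma held 1 RUNX match, which began 51 bases before the start, and Klra6 held 1 TCF/LEF match, 106 bases before it. Of the 32851 promoters in the RefSeq table, 4.40% hold the RUNX letters in this window, 3.21% the TCF/LEF letters, 3.33% the T-box letters and 19.7% the ETS letters. The Klra5 and Klra6 windows are close relatives, with 204 identical bases of 221 aligned (92.3%) when the ends are shifted. A match is a string of letters and was not tested for binding.

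Ly49 receptors, the products of the Klra genes on chromosome 6, are MHC class I receptors of NK cells and of some T cells, and most of them inhibit. Klra5 was the most abundant in TCRγδ cells, at 408 CPM against 263 CPM in TCRβ cells (0.63, 0.56 to 0.70). Its call is near the threshold, and among cells with no Cd8b1 UMI it was 0.53. Every other measured member was lower. Klra6 stood at 19.2 and 189 CPM (-3.30, -3.58 to -3.03) and Klra7 at 47.9 and 291 CPM (-2.60). Klra9 (-3.14), Klra1 (-2.80), Klra8 (-1.51), Klra3 (-0.97) and the pseudogene Klra13-ps (-0.76) followed. A UMI of any Ly49 gene other than Klra5 was found in 7.61% of thinned TCRγδ cells (6.35 to 9.03) and 38.6% of TCRβ cells (37.5 to 39.8), with 10.3% and 44.1% unthinned, and in 1 of 21 removed epithelial cells. A Klra5 UMI was found in 27.3% and 18.6% of thinned cells (31.5% and 21.6% unthinned). These genes are close copies of each other, and how reads that match several were counted is not known.

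Of 5 adaptors and Fc receptors that signal through ITAM or related motifs, 3 were higher and none lower. Tyrobp, the adaptor DAP12 that carries the signal of activating receptors, stood at 1571 and 808 CPM (0.96) and was found in 69.1% and 47.4% of thinned cells, or 70.3% and 52.8% unthinned. Fcer1g, the Fc receptor γ chain, was abundant in both, at 2164 and 1820 CPM (0.25). Of 13 NKG2 and NKRP1-type receptor genes 4 were higher and 4 lower, with log2 ratios from -2.01 to 3.79. Klrd1, the CD94 chain, was level at 1537 and 1581 CPM (-0.04), and Klrk1, which encodes NKG2D, was lower, at 37.6 and 73.5 CPM (-0.97). Klrg1, a receptor of effector cells, was higher from few counts, 46 and 11 UMIs (3.79, 2.82 to 4.89).

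Scin encodes scinderin, which severs and caps actin filaments. It stood at 71.1 CPM in TCRγδ cells and 1.04 CPM in TCRβ cells (6.09, 5.46 to 6.80), from 433 and 21 UMIs, and had the highest ratio of the ranked genes, which leave out receptor genes such as Trdc. Of the 15 measured genes for actin severing and capping, Scin included, 2 were higher and 2 lower, and the related Gsn, gelsolin, stood at 44.1 and 67.9 CPM (-0.62). A Scin UMI was found in 9.13% of thinned TCRγδ cells (7.75 to 10.7) and 0.161% of TCRβ cells, or 13.6% and 0.198% unthinned. Among the 29 removed epithelial cells 27.6% had one, unthinned, and the part of epithelial RNA in the Scin value was not tested. Without the kept cells that held any Krt8, Krt19 or Pigr UMI the log2 ratio was 6.11.

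MHC class II molecules present peptides to CD4 T cells and are not typical of mouse T cells. The transcripts were low in both libraries and several-fold higher in TCRγδ cells. H2-Eb1 stood at 69.9 and 10.5 CPM (2.73, 2.49 to 2.98), H2-Ab1 at 44.6 and 10.7 CPM (2.07), H2-Aa at 43.2 and 6.25 CPM (2.79), and Cd74, the invariant chain, at 57.9 and 8.14 CPM (2.83). A UMI of any of these 4 was found in 20.3% of thinned TCRγδ cells (18.3 to 22.4), 3.48% of TCRβ cells (3.06 to 3.94) and 0 of 21 removed epithelial cells. Unthinned, the first 2 shares were 29.2% and 4.87%. Ciita, the master regulator of the class, was level, at 5.42 and 5.31 CPM (0.03). H2-Oa (-1.26) and H2-Ob (-1.64), the chains of H2-O, were lower. Single cells weighed on Cd74: 1 TCRβ cell held 39 of its 164 UMIs.

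Among transcription factors, Prdm1, which encodes BLIMP-1, a driver of effector differentiation, stood at 82.9 and 13.7 CPM (2.59, 2.38 to 2.81). Runx2 stood at 105.5 and 21.5 CPM (2.29), Zeb2 at 17.9 and 4.37 CPM (2.03) and Zbtb16, which encodes PLZF of innate-like T cells, at 10.01 and 2.08 CPM (2.26). Runx3, the factor of the CD8 lineage, was level at 1098 and 1110 CPM (-0.02). Of 25 effector and residency factors, a list without Zbtb16, 6 were higher and 2 lower. The lower were Ahr, the aryl hydrocarbon receptor, at 246 and 399 CPM (-0.69), and Ikzf2, which encodes Helios, at 659 and 1016 CPM (-0.62). With TMM or DESeq2 scaling Ikzf2 was -0.55, short of 1.5-fold, as was Gsn. Other leading higher genes were Fgl2, an immunoregulatory secreted protein, at 804 and 196 CPM (2.04), Tnfrsf9, the costimulatory receptor 4-1BB, at 242 and 59.8 CPM (2.02), and Itgax, the integrin CD11c, with 325 and 262 UMIs (2.04). Plek, Tmem273, Selenom, Ppp2r2c and Arrdc4 completed the 15, with log2 ratios of 2.08 to 2.39.

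The lowest transcripts were led by receptors of conventional T cells. Cd28, the main costimulatory receptor, had 4 UMIs in all TCRγδ cells, or 0.656 CPM, and 93.0 CPM in TCRβ cells (-7.15, -9.02 to -5.79). Cd2, an adhesion and costimulatory receptor, stood at 16.4 and 202 CPM (-3.62). A UMI of Cd28 or Cd2 was found in 2.47% of thinned TCRγδ cells and 34.0% of TCRβ cells, or 4.28% and 44.7% unthinned. Icos (-1.64), Cd27 (-0.81) and Cd160 (-0.76, at 605 and 1026 CPM) were lower too, and in all 7 of 22 costimulation and adhesion genes were lower and 2 higher. Cd8b1, the CD8β chain, stood at 5.42 and 115 CPM (-4.41), while Cd8a, on which all cells were sorted, was level at 1533 and 1356 CPM (0.18). A Cd8b1 UMI was found in 8.11% of TCRβ cells (7.47 to 8.78) and in 0.634% of TCRγδ cells after thinning, or 10.3% and 1.12% unthinned, and in none of the removed epithelial cells. At this depth a cell without a UMI may still carry the transcript.

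Of the 18 naive and memory genes 13 were lower in TCRγδ cells, 4 were within 1.5-fold and 1 was higher. Tcf7 stood at 46.4 CPM in TCRγδ cells and 149 CPM in TCRβ cells (-1.68, -1.86 to -1.50). A Tcf7 UMI was found in 7.04% and 20.7% of thinned cells, 12.9% and 30.1% unthinned, and in 1 of 21 removed epithelial cells. Its relative Lef1 stood at 2.63 and 46.8 CPM (-4.15). S1pr1, the receptor by which lymphocytes leave tissues, had 6 UMIs in TCRγδ cells and 793 in TCRβ cells (-5.32). Klf2, which drives S1pr1, stood at 139 and 674 CPM (-2.28), Satb1, a chromatin organiser, at 25.6 and 148 CPM (-2.53), and Id3, an inhibitor of E proteins, at 101 and 396 CPM (-1.97). Id3 is also an epithelial gene, with a UMI in 47.6% of the removed thinned cells. Foxp1 (-0.10) and Bcl2 (-0.05) of the same list were level. Of the lowest 15, S100a4, a calcium-binding protein of migrating cells, had 4 and 1205 UMIs (-6.51), and Cldn10, a claudin, stood at 3.94 and 80.5 CPM (-4.35). The S100a4 UMIs of the TCRβ library lay in 347 cells, with up to 28 in 1 cell, and those of Cldn10 in 1351 cells. Klf3, Sidt1, Rgs10, Ms4a4b and Lysmd2 lay between -2.51 and -2.19.

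The comparison was repeated without the cells in which a CD8β transcript was found. Among cells with no Cd8b1 UMI, 1849 TCRγδ and 6813 TCRβ cells, Tcf7 was -1.61, Lef1 -3.88, Klf2 -1.90, Cd28 -6.77 and Cd2 -3.53. In that comparison 862 of the 975 lower genes were again at least 1.5-fold lower. It reused 6813 of the 7592 TCRβ cells, so a large overlap was to be had in any case. Cells without a Cd8b1 UMI may still carry the transcript, and the part of CD8αβ cells in the lower genes was not tested. Il7r, the interleukin-7 receptor, was -1.28 over all cells and 0.21 among cells with no Cd8b1 UMI.

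**Figure D4:**
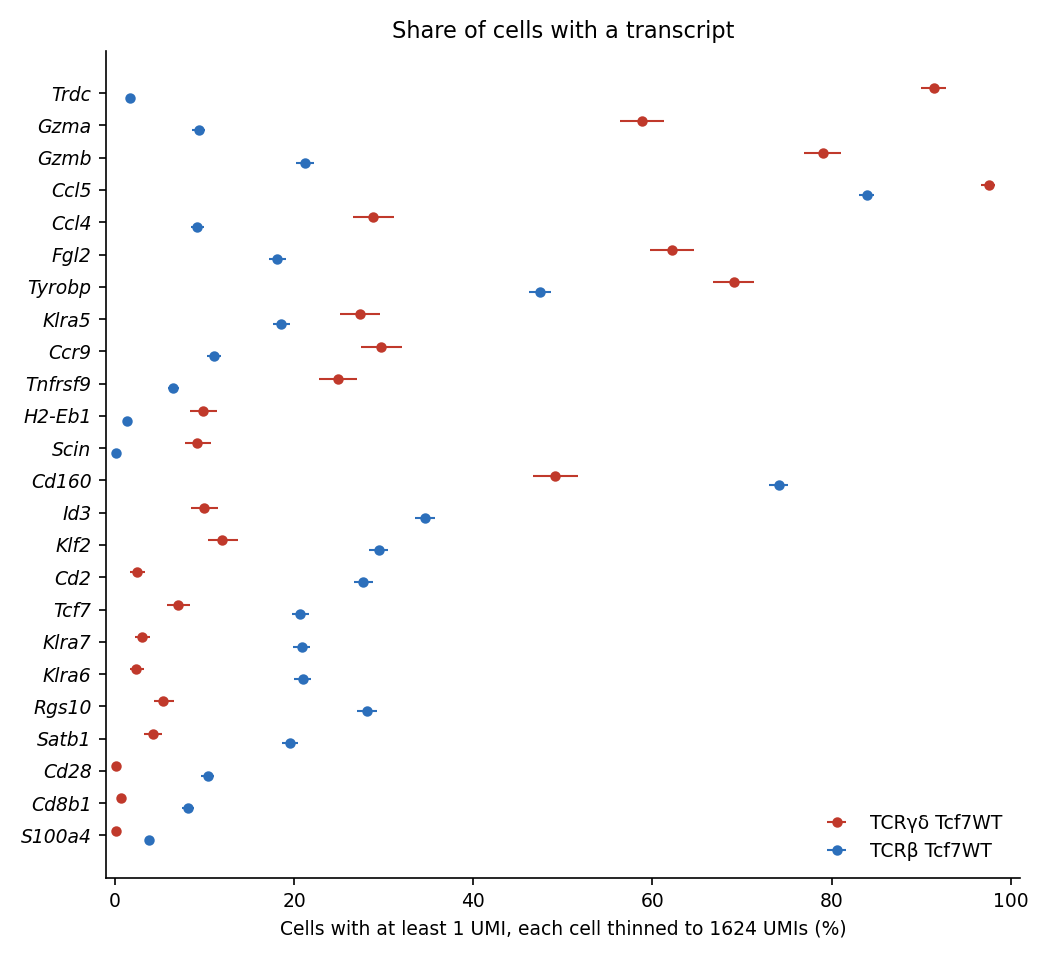
Share of cells with at least 1 UMI of 24 genes (x axis, %), each cell thinned to 1624 UMIs, in 1577 TCRγδ cells (red) and 6834 TCRβ cells (blue); bars are exact 95% intervals, which cover counting error alone. From Trdc down to Scin the TCRγδ share is higher, and from Cd160 down to S100a4 it is lower.

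Receptors for cytokines, homing signals and inhibition went both ways. Il2rb, the β chain shared by the interleukin-2 and interleukin-15 receptors, stood at 391 and 210 CPM (0.89), while Il18r1 had 11 and 490 UMIs (-3.75). Ccr9, which guides T cells to the gut, stood at 250 and 98.3 CPM (1.35). Cxcr4 had 15 and 534 UMIs (-3.43). Itgae, the CD103 integrin that binds epithelial E-cadherin, stood at 587 and 388 CPM (0.60, or 0.55 among cells with no Cd8b1 UMI), and Itgal, the LFA-1 chain, at 24.8 and 68.5 CPM (-1.47). Of 14 inhibitory receptor genes, 6 were higher and 2 lower. Havcr2, which encodes TIM-3, had 87 and 9 UMIs, which made it 32.0-fold higher in CPM, Lag3 stood at 194 and 102 CPM (0.93), Entpd1, which encodes CD39, at 84.5 and 36.1 CPM (1.23) and Cd200r2 at 345 and 102 CPM (1.75). Pdcd1, which encodes PD-1, had 5 and 258 UMIs (-3.96).

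Because so many more TCRγδ cells carried Gzma, the libraries were also compared within the cells that did and within those that did not, a split chosen after the values were seen. There were 1156 TCRγδ and 755 TCRβ cells with a Gzma UMI, at medians of 3196 and 2731 UMIs, and 714 and 6837 without one. A single UMI was enough to place a cell in the first set. After thinning, 136 of 637 TCRβ cells with Gzma held exactly 1 UMI, against 48 of 928 TCRγδ cells. How many such cells held only free Gzma RNA was not tested, so the 2 sides of this set may differ in that. Among cells with Gzma, the libraries were more alike: of 8850 measured genes 4.07% were at least 1.5-fold higher in TCRγδ cells and 3.99% lower, against 7.78% and 8.78% of 10783 genes in cells without it. Fewer genes could be measured in the first set, which holds fewer UMIs. Gzmb stood at 7198 and 5065 CPM in cells with Gzma (0.51) and at 2097 and 359 CPM in cells without (2.55). Prdm1 was 0.69 and 2.46, Fgl2 0.40 and 1.94, Itgax 0.00 and 2.18, and Ccl5 0.30 and 0.90. Scin stayed far apart in both, at 3.88 and 4.85. The 14 leading higher genes other than Gzma had been picked for extreme ratios in the same cells. Since 6837 of the 7592 TCRβ cells had no Gzma UMI, a high count among cells without Gzma was likely in any case. Of these 14 genes, 8 were at least 1.5-fold higher among cells with Gzma and all 14 among cells without it. Gzmb, Plek, Tmem273, Ppp2r2c, Itgax and Fgl2 were the 6 under that fold. Among cells with Gzma, Prf1 (0.040), Ccl3 (0.36), Ccl4 (0.083), Lag3 (0.0089), Fasl (0.10), Il2rb (0.11), Cd200r2 (0.28), Gzmc (0.33), Entpd1 (0.41) and Zbtb16 (0.48) were under it too. Ifng (-0.049), Gzmk (-0.52), Prf1 (-0.43) and Ccl3 (-0.39) were not higher among cells without Gzma.

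Over all genes, 219 of the 819 higher and 168 of the 975 lower genes were again past 1.5-fold among cells with Gzma, 26.7% and 17.2%. Among cells without Gzma 570 and 592 were, 69.6% and 60.7%. A gene with under 50 UMIs within a set counted as not past the fold, and 8850 and 10783 genes were measured. These shares therefore do not tell a smaller difference from too few UMIs. The naive and memory list had a median of -0.33 among cells with Gzma, with 6 genes lower, and -1.06 among cells without Gzma, with 12 lower. All 15 leading lower genes were at least 1.5-fold lower among cells with Gzma and among cells without it, with medians of -2.52 and -2.25. These 15 had been picked for extreme ratios in the same cells, and 6837 of the 7592 TCRβ cells had no Gzma UMI. Their count therefore cannot show whether the lower genes as a set depend on Gzma. Cd28, from 3 and 86 UMIs and from 1 and 1789 UMIs, was -5.58 (-7.89 to -3.99) and -7.86 (-13.17 to -5.38). Cd2 was -4.06 and -2.77, and Klra6 -4.36 and -2.35. Klra5 turned with the split: it stood at 254 and 424 CPM among cells with Gzma (-0.74) and at 656 and 243 CPM among cells without (1.43). Tyrobp did so too, at -0.27 and 1.35, and Thy1, a glycoprotein anchored in the T cell membrane, at 0.17 and -1.08. Within the TCRγδ library, thinned, Klra5 was found in 16.7% of cells with Gzma and 42.5% of cells without, and within the TCRβ library in 27.3% and 17.7%. Tcf7 was found in 1.51% and 14.9% of TCRγδ cells with and without Gzma, and in 7.06% and 22.1% of TCRβ cells; in both libraries the share was the smaller among cells with Gzma. Cd160 had the same order, with 31.6% and 74.3% of TCRγδ cells and 46.9% and 76.9% of TCRβ cells, and was nearly level between the libraries among cells without Gzma (-0.11).

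**Figure D5:**
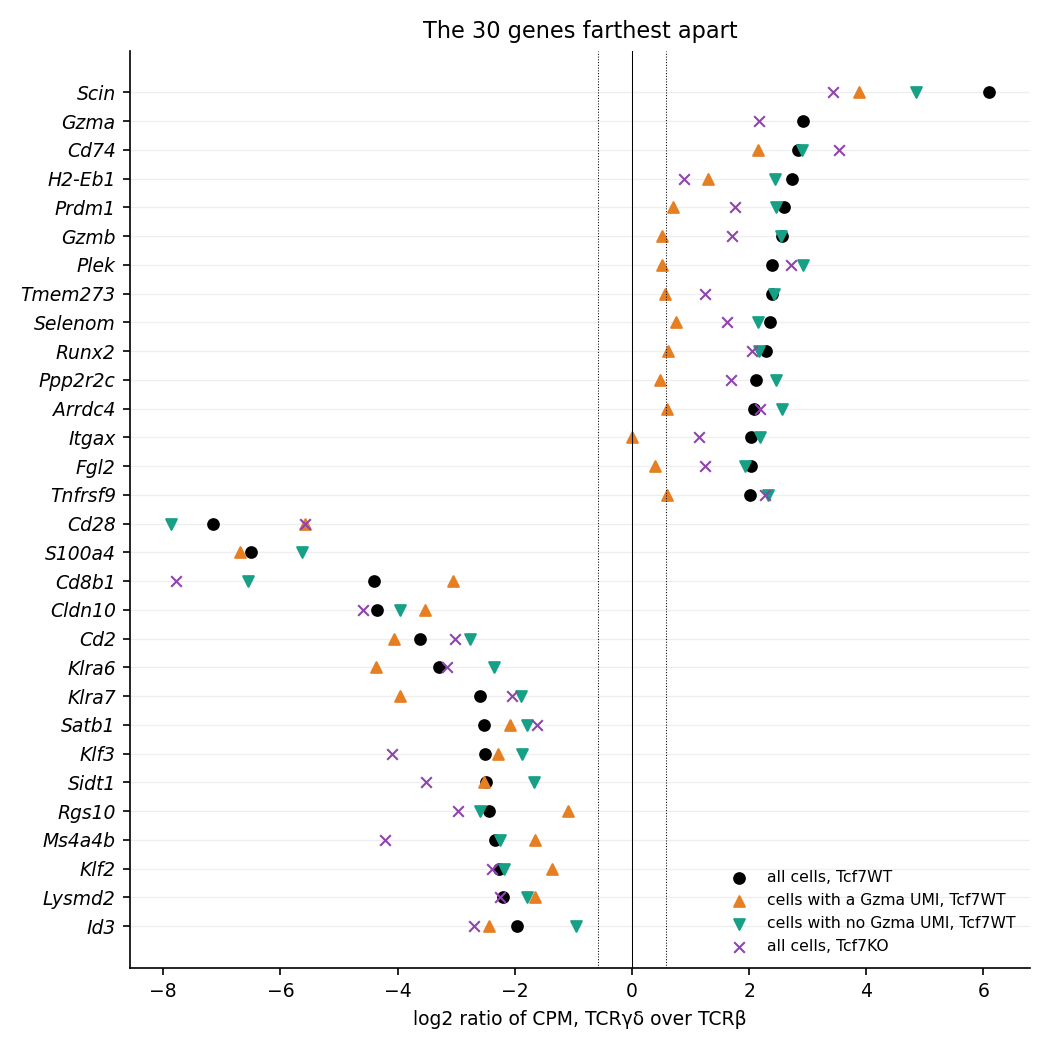
Log2 ratio of CPM, TCRγδ over TCRβ (x axis), of the 15 highest and 15 lowest genes (rows), over all Tcf7WT cells (black circles), over Tcf7WT cells with a Gzma UMI (orange triangles) and without (green triangles), and over all Tcf7KO cells (purple crosses); Gzma has no split values and S100a4 no Tcf7KO value. The Tcf7KO value of Scin rests on 8 and 2 UMIs, under the minimum of 50. Dotted lines mark 1.5-fold. Among cells with Gzma 6 of the higher genes lie inside these lines, and the lower genes stay outside.

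Markers of other cells were low and differed in part. Over the kept cells, Krt8, Krt19 and Pigr summed to 39.7 CPM in the TCRγδ library and 6.45 CPM in the TCRβ library, and a UMI of any was found in 11.7% and 1.61% of cells. Epcam, which IELs of both libraries carried, stood at 158 and 161 CPM. Of 9 measured epithelial genes 8 were higher in the TCRγδ library, and none was lower. Without the 218 TCRγδ and 122 TCRβ cells that held a Krt8, Krt19 or Pigr UMI, 805 genes were higher and 1011 lower, and 762 of the 819 and 902 of the 975 were among them. That comparison reused 1652 of the 1870 TCRγδ and 7470 of the 7592 TCRβ cells, so a large overlap was to be had in any case. The part of the other epithelial RNA in the ratios was not tested. Of 4 defining myeloid markers, Lyz2, Csf1r and C1qa were listed for neither library, and Cd68 had 31 and 46 UMIs (1.16). In a further list of 4 measured myeloid and dendritic cell genes 2 were higher and 1 lower, with Cd68 among the higher and Itgam, the integrin CD11b, at 8.04 and 1.19 CPM (2.76). The part of such cells in the MHC class II and Itgax values was not tested. Cd4 and Foxp3 were not listed for it either and summed to 0.744 CPM in the TCRβ library.

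The Tcf7KO libraries give the same comparison in other cells, 1491 TCRγδ and 5782 TCRβ, and share no library with the Tcf7WT pair. There 6.59% of 10917 genes were at least 1.5-fold higher and 10.1% lower. Of 1632 genes past 1.5-fold in the Tcf7WT pair and measured in both, 92.8% had the same sign in the Tcf7KO pair. Of the 762 higher ones 492 were again at least 1.5-fold higher, which is 64.6% of those and 72.5% of the Tcf7KO pair's. Of the 870 lower ones 522 were again lower, 60.0% and 48.4%. All leading genes measured there, 14 higher and 14 lower, were past 1.5-fold in the same direction. Gzma was 2.16, Gzmb 1.70, Cd28 -5.58, Cd2 -3.02, Klra5 1.48 and Klra6 -3.16. H2-Eb1, with 34 and 50 UMIs, stood at 5.04 CPM in the TCRγδ cells and 2.74 CPM in the TCRβ cells. Its log2 ratio was 0.88 (0.21 to 1.54), against 2.73 in the Tcf7WT pair. Scin, with 8 and 2 UMIs, was under the minimum of 50, and S100a4 was not listed for the TCRγδ library. The level of Scin was 1.19 and 0.11 CPM in the Tcf7KO pair, against 71.1 and 1.04 CPM in the Tcf7WT pair. That gap between the pairs was not tested. Ccr9 went from 1.35 to 0.12. Gzmk, with 6 of 6740143 and 29 of 18262777 UMIs, was under the minimum there and was not higher in TCRγδ cells.

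Some genes were listed for 1 of the 2 libraries and have no ratio. The TCRγδ library alone listed Gzmf, with 67 UMIs of which 62 lay in 1 cell, the δ segments Trdj2 and Trdv4, Reg3g, an antimicrobial lectin of the epithelium, and Abcd2. The TCRβ library alone listed Ly6c2, a marker of memory and activated CD8 T cells, at 63.9 CPM in 369 cells, Myl1 at 66.3 CPM in 599 cells and Ccr7, the lymph node homing receptor, at 24.3 CPM in 173 cells. It also listed the haemoglobin genes Hbb-b1 and Hba-a2, of whose UMIs 1 cell held 2541 of 2543 and 1812 of 1814. The rule by which a library lists a gene is not known.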

How the data were processed

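Colon IELs were profiled by 3′ single-cell RNA sequencing, 1 library per group. The deposited matrices hold UMI counts per gene and cell, with gene symbols and barcodes; per the submitters' processing notes Seurat 3.0.0 and the builds GRCm38 and mm10 were used, and the aligner, the cell filter and the listing rule are not given in the sources used here. Cells with 10 or more summed UMIs of Krt8, Krt19, Pigr and Epcam were left out. UMIs were summed over the other cells and divided by the library total (CPM). Log2 ratios have exact intervals conditional on both counts, and shares of cells exact Clopper-Pearson intervals, at 95%. Groups of 1 library allow no test. For shares, cells were thinned to 1624 UMIs, the 10th percentile of the TCRβ library, which left out 293 TCRγδ, 758 TCRβ and 8 epithelial cells.

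The comparison, the 46 gene lists and the genes were chosen with earlier results of these data known. Named genes are the 15 highest and 15 lowest ratios among genes with at least 100 UMIs over both libraries and 50 CPM in the higher one (without receptor and immunoglobulin segments, mitochondrial, ribosomal and haemoglobin genes, sex-linked genes and unnamed models), Tcf7 and Lef1, all measured members of lists of up to 12, otherwise the 8 largest ratios and 4 highest levels, and the 5 genes with most UMIs listed in 1 library. The split by Gzma and the removal of cells with Krt8, Krt19 or Pigr UMIs were chosen after the data were seen. Other alternatives were other scalings, cell filters, count minimums and depths. The calculation was tested on simulated data, drawn for each gene with counting error alone, as the intervals assume. Coverage near 95% was thus to be had in any case. UMIs that gather in single cells were not simulated, so these rates do not carry over to the real counts. With no true change the interval held the truth for 95.4% of 10949 genes, while 0.70% were called higher and 1.11% lower. All 100 genes made 2-fold higher passed 1.5-fold, and the interval held the truth for 93% of them. For 98 genes made 4-fold lower it held the truth for 92.9%. Scrublet marked 15 TCRγδ cells and 0 of 7592 TCRβ cells. A call of 0 in so many cells was not relied on, and doublets were not removed. Python 3.11.15, scipy 1.17.1, scanpy 1.11.5, edgeR 4.0.16 and DESeq2 1.42.0 were used, the last 2 for scaling factors alone.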

Additional observations from a re-analysis of the deposited data

Results flagged for a closer look

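The log2 ratio of TCRγδ over TCRβ cells was past 1.5-fold in the Tcf7WT pair for 1632 genes measured in both pairs. For 18 of these it was past 1.5-fold in the opposite direction in the Tcf7KO pair. Of the named genes, 3 were among them with intervals clear of 0 in both pairs. Ifng was 1.05 in the Tcf7WT pair and -0.75 (-0.97 to -0.53) in the Tcf7KO pair. Il2ra, the α chain of the interleukin-2 receptor, was 1.70 and -0.86 (-1.81 to -0.021), from 56 and 57 UMIs in the Tcf7WT pair. Izumo1r, the folate receptor of regulatory T cells, was -0.74 and 0.66 (0.099 to 1.21). With 1 library per group the difference between the pairs was not tested. In the Tcf7WT pair Ifng was 1.07 among cells with a Gzma UMI and -0.05 among cells without.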

How the results depend on the processing

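Of the counts of genes at least 1.5-fold apart (819 higher, 975 lower), 3 choices moved one by more than 1.5 times. With at least 200 UMIs asked of a gene there were 449 higher and 527 lower, from fewer genes tested. With no minimum and 0.5 UMIs added, which changes both at once, there were 1710 higher. Among cells with a Gzma UMI there were 360 and 353, with fewer cells and genes. TMM and DESeq2 scaling gave 950 and 957 higher, 816 and 811 lower, and so moved the share of calls that were higher from 45.7% to 53.8% and 54.1%. Each of the 30 ranked genes kept its sign under every alternative run for it, up to 16. Of the genes printed here as past 1.5-fold, signs turned among cells with a Gzma UMI for Klra5 (-0.74), Tyrobp (-0.27), Thy1 (0.17) and the median of the ITAM adaptors and Fc receptors (-0.13), among cells without one for Gzmk (-0.52), Prf1 (-0.43), Ccl3 (-0.39) and Ifng (-0.049), and among cells with no Cd8b1 UMI for Il7r (0.21) and, by construction, the median of Cd8a and Cd8b1 (0.17). The cause was not tested for the others. With 1 library per group, mice, library and receptor type cannot be told apart. Genes under 50 UMIs, a share near 0 and the CD8β and CD28 ratios are limited by depth.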
